A study of Mus musculus with 20 samples.

Results

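The genes examined here are the cytosolic aminoacyl-tRNA synthetases together with enzymes of serine, one-carbon, proline and asparagine synthesis and regulators of the Atf4 response. They were taken from a list of 35 gene symbols, each read through the probe set with the highest mean over all 20 arrays. 33 of the 35 were matched to a probe set, out of 18193 genes in all, with Mars listed under the newer symbol Mars1, while Dars and Pycr1 were not analysed here. Of the 33, 19 encode synthetases, 7 encode synthesis enzymes and 7 belong to the Atf4 response.

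The samples were mouse lenses, with both lenses of a mouse taken for RNA, hybridised to Affymetrix arrays in 4 groups of 5. Control mice were E2F2-/- and triple knockout mice were Cry-Cre E2F1-/- E2F2-/- E2F3f/f, each collected late in gestation (E17.5) and at birth (P0). All groups therefore lack E2F2, and no wild type lens is among them. The knockouts lack E2F1 in the whole animal, and E2F3 is a floxed allele cut by Cry-Cre, a Cre recombinase under a crystallin promoter that the labels do not specify further. Only the knockout labels name Cry-Cre, so Cre itself and the loss of E2F1 and E2F3 cannot be told apart. Sex, litter and strain are not in the labels, so the p-values below measure the spread between these mice. The labels name the cell type as epithelial, but whole lenses were dissected, and the arrays carried defining genes of both lens epithelium and lens fibre cells, with Crygs, a fibre crystallin, between 14.11 and 14.49 on the log2 scale on every array.

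Aminoacyl-tRNA synthetases attach each amino acid to its tRNA and so supply the ribosome. When an amino acid runs short, uncharged tRNA activates the kinase encoded by Eif2ak4, which phosphorylates the translation factor eIF2. General initiation then falls while Atf4 mRNA is translated more, and Atf4 protein raises transcription of many synthetases, of amino acid transporters and synthesis enzymes such as Asns, and of regulators such as Ddit3, Trib3 and Chac1. Stress of the endoplasmic reticulum reaches Atf4 through another eIF2 kinase. In the lens, fibre cells make crystallins in very large amounts before birth and later lose their organelles.

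Atf4 binds, with C/EBP partners, to an amino acid response element whose core can be written TGATGNAA. These letters were searched on both strands of the 300 bases around each annotated transcription start in RefSeq, from 250 bases before the start to 50 bases from the start on (build GRCm38.p6). No other motif was searched. Of the 26 matched members with an entry, 8 held the letters (30.8%), against 1219 of 27025 genes (4.51%). Many members entered the list as known Atf4 targets, so this share is not independent of their choice, and a match is a description of the letters, not a site of binding. Large changes described below occurred with a match, as in Asns and Tars, and without a match, as in Mthfd2 and Aldh18a1. The 30 bases around the match in 7 of the 8 genes follow, written 5′ to 3′ on the gene's strand with the matching letters in capitals.
Gars, chr6:55037960-55037989, + strand: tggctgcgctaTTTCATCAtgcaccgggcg
Iars, chr13:49682126-49682155, + strand: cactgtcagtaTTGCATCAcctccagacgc
Tars, chr15:11399655-11399684, - strand: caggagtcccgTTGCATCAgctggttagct
Yars, chr4:129189895-129189924, + strand: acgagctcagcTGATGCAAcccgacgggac
Asns, chr6:7693214-7693243, - strand: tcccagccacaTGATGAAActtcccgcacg
Chac1, chr2:119351038-119351067, + strand: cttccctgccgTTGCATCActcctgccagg
Trib3, chr2:152344028-152344057, - strand: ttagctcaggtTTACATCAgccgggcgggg

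In Asns the match began 23 bases before the start, in Tars 15 and in Gars 30 bases before it. In Chac1 it began 193 bases before the start. The matches of Yars, Iars and Trib3 lay just after the start, in the transcribed part. For Asns, which had the largest fall in controls, and Chac1, the member that varied most between arrays of a group, the 250 bases before the start read as follows, with the same letters in capitals.
Asns promoter, chr6:7693210-7693459, - strand: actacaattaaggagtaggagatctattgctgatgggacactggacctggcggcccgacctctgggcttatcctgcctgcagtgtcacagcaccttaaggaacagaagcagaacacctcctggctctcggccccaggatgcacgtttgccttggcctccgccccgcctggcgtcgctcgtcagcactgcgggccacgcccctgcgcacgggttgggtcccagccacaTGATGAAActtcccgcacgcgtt
Chac1 promoter, chr2:119350992-119351241, + strand: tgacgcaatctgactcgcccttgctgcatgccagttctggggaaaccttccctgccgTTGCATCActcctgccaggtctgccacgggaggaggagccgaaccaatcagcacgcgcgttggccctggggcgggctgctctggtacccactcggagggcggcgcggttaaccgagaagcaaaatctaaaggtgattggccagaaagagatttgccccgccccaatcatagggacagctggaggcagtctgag

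The values are the deposited log2 signals, used without further scaling between arrays. A gene was tested where it exceeded the median of its array on 5 or more of the 20 arrays, and 11859 genes did so. A change is called here where limma's adjusted p, by Benjamini and Hochberg over all 11859 genes, was below 0.05. Of the 33 members, 32 were tested. Trib3, a pseudokinase induced by Atf4, exceeded the median in 2 of 20 arrays and was not tested. Chac1, a glutathione-degrading enzyme, passed through 6 of 20 arrays and Cebpb, a C/EBP transcription factor, through 8 of 20, so both sat near background on most arrays. The other 30 exceeded the median on every array.

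The knockout arrays at E17.5 stood apart in spread. The median standard deviation over members was 0.23 there against 0.10 in controls of that stage, 0.07 in newborn controls and 0.15 in newborn knockouts, and 0.20 over all genes tested in the knockout group at E17.5. Arrays 24 and 27 had a mean correlation of 0.985 and 0.990 with E17.5 controls and of 0.969 and 0.972 with the other knockouts. Array 28 had the lowest correlation with its group, 0.955, and the highest mean of vessel markers, 8.43 against at most 7.0 in the other knockout arrays at E17.5. In whole lenses, fewer cells of a type and less RNA per cell cannot be told apart.

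**Figure D1:**
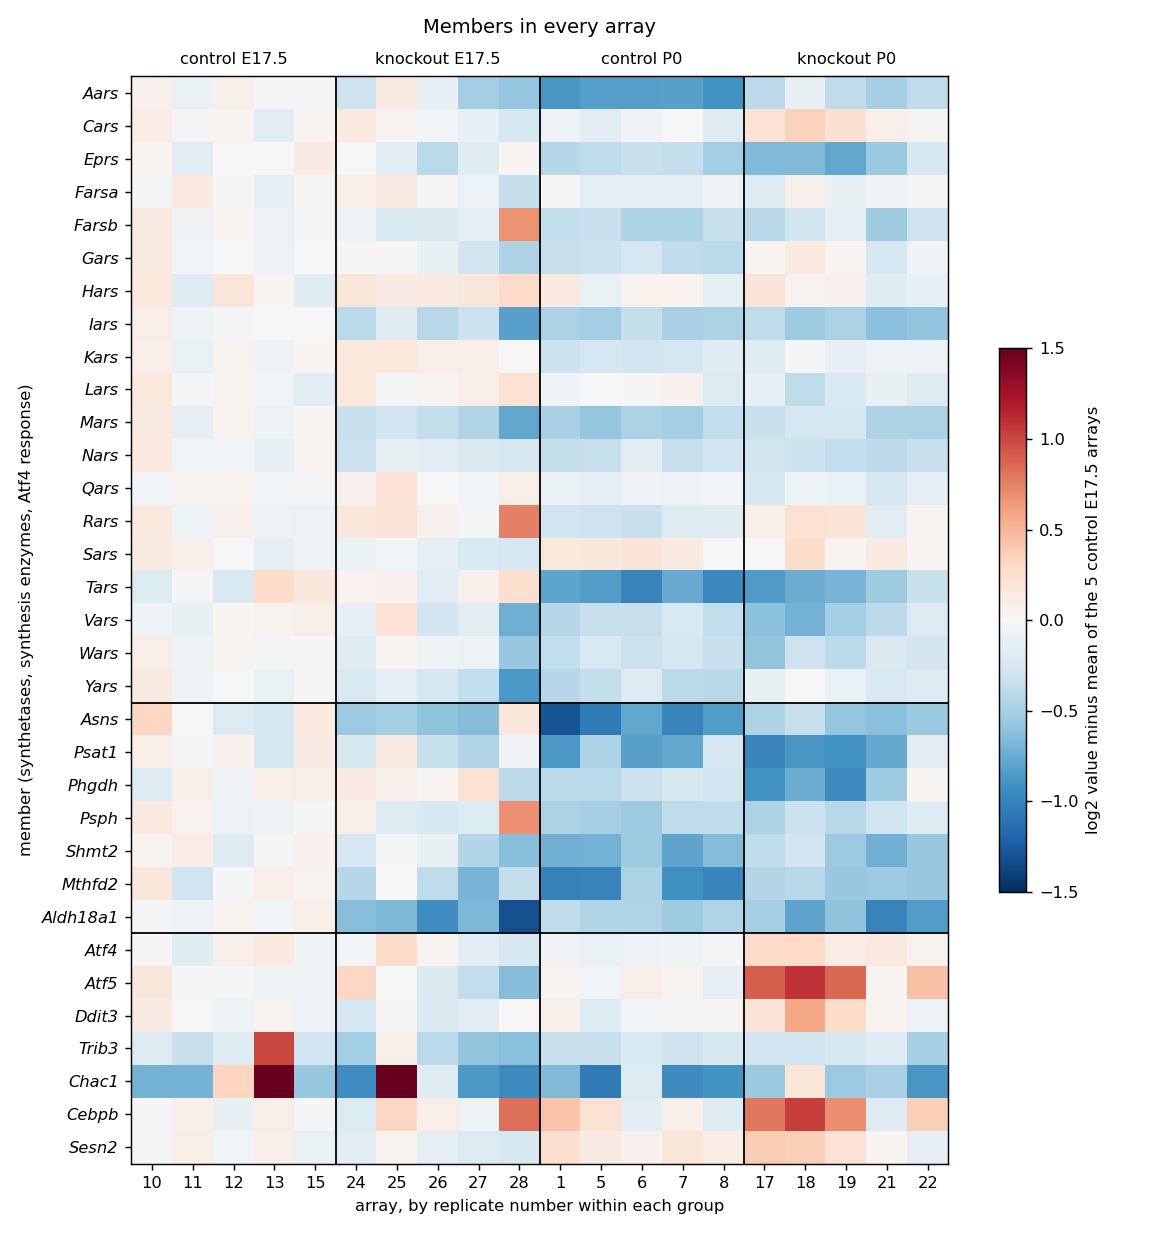
Heat map of 33 members (rows, in 3 groups by role) over the 20 arrays (columns, in 4 groups of 5, labelled by replicate), coloured by the log2 difference from the mean of the control arrays at E17.5, with colours ending at -1.5 and 1.5. Most synthetases and synthesis enzymes are below the E17.5 controls on the newborn control arrays. Of the 6 tested Atf4 regulators and targets, 3 had estimates above 0 and 3 below in that comparison, and 0 were called.

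Control lenses between E17.5 and birth showed the broadest movement of these genes. Between E17.5 and P0, 20 of the 32 tested members fell and 0 rose in limma's test. Over all genes, 37.4% were called in either direction, 24.9% lower and 12.5% higher. Unadjusted p was below 0.05 in 20 members that were lower and 1 that was higher, against 3567 and 2000 of 11859 genes. The median change was -0.34 over members and -0.04 over all genes tested. 13 of 19 synthetases and 7 of 7 synthesis enzymes fell, while 0 of the 6 tested Atf4 regulators and targets did (0 at unadjusted p below 0.05). In 19 members all newborn control arrays were below all E17.5 control arrays, which held for 17.2% of all genes, and in 0 members they were all above, against 7.78%.

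Aars, the alanyl-tRNA synthetase, had the smallest adjusted p of the list in this comparison. Its control values were 9.77, 9.61, 9.78, 9.68 and 9.69 at E17.5 and 8.83, 8.88, 8.88, 8.89 and 8.80 at P0. The groups did not overlap, and the change was -0.85 ± 0.04 (SE, 5 against 5 arrays; limma adjusted p = 3.54e-06). Tars, the threonyl-tRNA synthetase, changed by a similar amount. Its control values were 8.67, 8.86, 8.65, 9.15 and 9.05 at E17.5 and 8.09, 8.04, 7.87, 8.12 and 7.91 at P0, a change of -0.87 ± 0.10 (limma adjusted p = 0.000154).

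The other 11 synthetases that fell changed by less. Mars, for methionine, fell by 0.49, Iars, for isoleucine, by 0.47 and Eprs, the fused enzyme for glutamate and proline, by 0.40. Farsb, the beta subunit for phenylalanine, fell by 0.39, Yars, for tyrosine, by 0.36 and Gars, for glycine, by 0.34. Vars for valine, Nars for asparagine, Wars for tryptophan, Rars for arginine and Kars for lysine lay between -0.34 and -0.26. The enzymes for cysteine (Cars, -0.10), histidine (Hars, 0.00), leucine (Lars, -0.04), glutamine (Qars, -0.08) and serine (Sars, 0.13), and the alpha subunit for phenylalanine (Farsa, -0.09), were not called.

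Asns, the enzyme that makes asparagine, had the largest change of any member between E17.5 and P0. Its control values were 10.09, 9.78, 9.57, 9.52 and 9.92 at E17.5 and 8.48, 8.71, 9.0, 8.78 and 8.94 at P0. The highest newborn array was below the lowest E17.5 array, and the change was -0.99 ± 0.12 (SE; limma adjusted p = 0.000243), a 1.99-fold difference. Mthfd2, a mitochondrial enzyme of the folate cycle, was at 9.50, 9.03, 9.31, 9.43 and 9.37 in E17.5 controls and at 8.31, 8.33, 8.85, 8.41 and 8.35 at P0. That is a change of -0.88 ± 0.11 (limma adjusted p = 0.000299), with 1 newborn array, 6, above the other 4.

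The rest of the serine and one-carbon route fell with them. Shmt2, the mitochondrial serine hydroxymethyltransferase, changed by -0.68 ± 0.07 (limma adjusted p = 8.13e-05). Psat1, Psph and Phgdh, the enzymes that build serine from a glycolytic intermediate, changed by -0.63, -0.45 and -0.33. Aldh18a1, which starts proline synthesis from glutamate, changed by -0.45 ± 0.05 (limma adjusted p = 9.52e-05). Of the 7 tested members with the motif letters in the promoter window, 6 fell, and of the 18 tested members with a window and no match, 10 fell. Members without a window are outside this split, and of those Nars, Rars, Vars and Wars fell while Cars, Hars and Lars were not called. The set without a match holds Atf4, Atf5, Ddit3, Cebpb and Sesn2, none of them called, so role and motif are mixed. Shares over all genes with and without a match were not computed. Leaving out any single array gave 20 or 21 called members in control lenses, and the rescalings of the arrays gave 20 and 22.

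The transcription factors stayed near their E17.5 level in controls. Atf4 mRNA was 11.16, 10.96, 11.23, 11.29 and 11.08 at E17.5 and 11.09, 11.05, 11.06, 11.08 and 11.11 at P0, a difference of -0.06 ± 0.06 (SE; limma adjusted p = 0.427). The newborn arrays lay inside the E17.5 range. Atf5 (0.00), Ddit3 (-0.03), Cebpb (0.07) and the nutrient sensor Sesn2 (0.14) were not called either. Chac1 had an estimate of -0.75 ± 0.41 (limma adjusted p = 0.171). Atf4 is regulated mainly in translation, which these arrays did not measure. Over the same interval the mean of 5 erythroid markers was lower by 1.06 and the mean of 12 lens fibre markers higher by 0.15 (exact permutation test, two-sided, p = 0.00794 for each, the smallest these groups allow, adjusted p = 0.0397 over 40 such tests). The 18S ribosomal RNA probe set was higher by 0.88, at 9.88 to 10.27 in newborn controls and 8.88 to 9.47 in E17.5 controls, with the same p and adjusted p. The part of these measures in the members' falls was not tested.

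**Figure D2:**
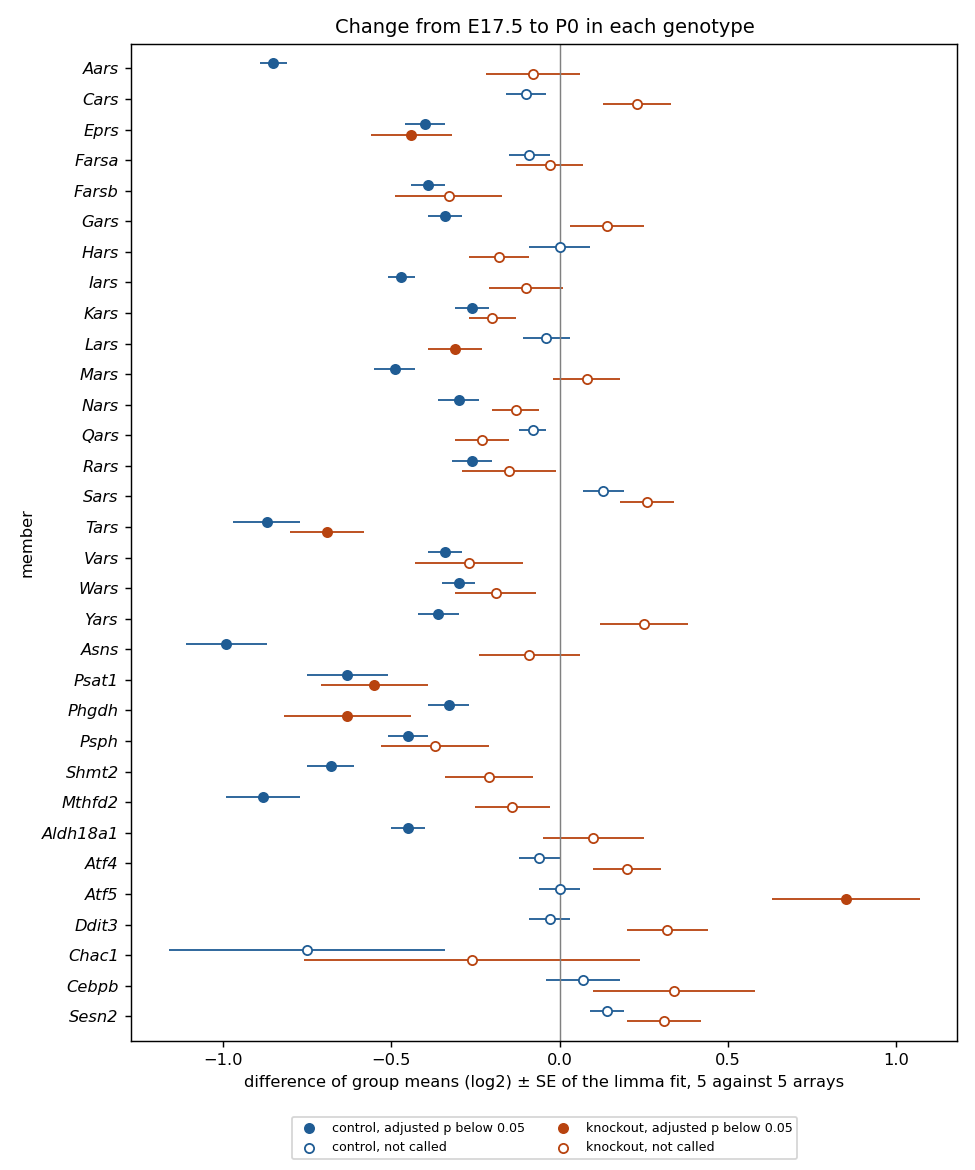
Change from E17.5 to P0 (log2, horizontal axis, mean ± SE of the limma fit) of each of 32 tested members, with control and knockout lenses as separate points and filled points for limma adjusted p below 0.05. In controls 20 members are filled and below 0, and in knockouts 6 are filled, 5 of them below 0.

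In knockout lenses fewer members passed the test over the same days. 5 of 32 fell and 1 rose, against 14.6% of all genes called, 8.77% lower and 5.80% higher. The median change was -0.13 over members and -0.03 over all genes. In 4 members every newborn array was below every E17.5 array, against 7.02% of all genes, and in 1 above, against 4.73%. The members that fell were the synthetases Tars, Eprs and Lars and the serine enzymes Phgdh and Psat1, and Atf5 rose. After quantile normalization 1 member fell, Tars, and 3 rose, Atf5, Sars and Sesn2, and over all genes the calls then moved from 688 higher and 1040 lower to 898 higher and 685 lower.

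Tars was 8.93, 8.94, 8.72, 8.95 and 9.12 in knockouts at E17.5 and 8.03, 8.13, 8.18, 8.34 and 8.54 at P0. The groups did not overlap, the change was -0.69 ± 0.11 (SE; limma adjusted p = 0.00725), and this call held when any array was left out. Phgdh was 10.57, 10.51, 10.48, 10.68 and 10.05 at E17.5 and 9.55, 9.70, 9.50, 9.91 and 10.48 at P0. Its groups overlapped through array 28 at E17.5 and array 22 at P0. Phgdh changed by -0.63 ± 0.19 (limma adjusted p = 0.0440) and Psat1 by -0.55 ± 0.16 (0.0455).

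Atf5, an Atf4-related factor, was 9.27, 8.96, 8.74, 8.59 and 8.31 in knockouts at E17.5 and 9.86, 10.05, 9.82, 9.0 and 9.40 at P0. The groups overlapped through E17.5 array 24 and P0 array 21, and the change was 0.85 ± 0.22 (SE; limma adjusted p = 0.0285). Without any of arrays 25, 26 or 27 at E17.5, or 17, 18 or 19 at P0, the call was lost (adjusted p between 0.0520 and 0.0784). The count of 6 called members fell to 1 without P0 array 17, 18 or 19, to 2 without E17.5 array 24, 25, 26 or 27 and to 3 without P0 array 21. In the fit over all 20 arrays it was 13.

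Aars and Asns, which fell most in controls along with Tars and Mthfd2, showed changes of -0.08 ± 0.14 and -0.09 ± 0.15 in knockouts (limma adjusted p = 0.726 and 0.697). Whether knockout and control lenses changed differently was tested as an interaction over all 20 arrays. 1 member passed, Aars, with 0 lower, against 0.177% of all genes called, 0.0337% above 0 and 0.143% below. Unadjusted p was below 0.05 in 13 members above 0 and 1 below, against 986 and 880 of 11859 genes. The Aars change was 0.77 ± 0.15 higher in knockouts (SE; limma adjusted p = 0.0355). Estimates were above 0 in 27 of 32 members (84.4%) and in 55.5% of all genes tested, with medians of 0.18 and 0.03.

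Behind Aars, 5 members had interaction estimates with adjusted p between 0.0664 and 0.0985 and did not pass. Mars stood at 0.57 ± 0.12, Asns at 0.90 ± 0.20, Mthfd2 at 0.74 ± 0.17, Yars at 0.61 ± 0.14 and Gars at 0.49 ± 0.12 (limma adjusted p = 0.0664, 0.0843, 0.0843, 0.0843 and 0.0985). Tars, whose fall was called in both genotypes, stood at 0.18. The Aars call was lost without any of the 10 control arrays. It was also lost without knockout array 27 at E17.5 and without 17, 18 or 19 at P0. Median centring, the mean of the probe sets, leaving out x_at and s_at probe sets, array weights and a retina marker covariate each ended it too. In all it was lost in 19 of 29 other settings, with the Aars estimate between 0.69 and 0.87 throughout. Without E17.5 knockout array 28 the test called 5 members and without P0 knockout array 22 it called 6.

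At E17.5 knockout lenses were compared with control lenses, which also lack E2F2. 2 of 32 members were lower in knockouts and 0 were higher in limma's test, against 2.89% of all genes called, 1.31% lower and 1.59% higher. Unadjusted p was below 0.05 in 9 members that were lower and 0 that were higher, against 1808 and 1233 of 11859 genes. After quantile normalization the calls over all genes were 207 higher and 373 lower, and after median centring 149 higher and 48 lower, in place of 188 and 155. The members called were Aldh18a1 and Mars. The estimate was below 0 in 23 of 32 members (71.9%) and in 55.3% of all genes, with medians of -0.15 and -0.03.

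Aldh18a1 had the largest knockout effect of the list at this stage. Control values were 10.08, 10.01, 10.15, 10.06 and 10.18, and knockout values were 9.46, 9.42, 9.16, 9.42 and 8.78. Every knockout array lay below every control array, and the difference was -0.85 ± 0.12 (SE; limma adjusted p = 0.00834), or 1.80-fold lower. All 4 tested probe sets of Aldh18a1 were lower, by 0.58 to 0.85, and 3 of the 4 passed when each probe set was tested on its own. The remaining probe set, the only one not ending in x_at, had -0.58 ± 0.17 (limma adjusted p = 0.0581 over probe sets).

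Mars was 10.25, 9.97, 10.17, 10.04 and 10.14 in controls and 9.78, 9.83, 9.76, 9.66 and 9.34 in knockouts. The groups did not overlap and the difference was -0.44 ± 0.10 (SE; limma adjusted p = 0.0455). This call was lost without any of the 5 control arrays, without knockout array 24, 25 or 26, after median centring, with no filter and with a retina marker covariate. Iars separated the groups as well, with controls at 10.90, 10.74, 10.78, 10.81 and 10.82 and knockouts at 10.41, 10.63, 10.39, 10.49 and 10, but did not pass (-0.43 ± 0.10, limma adjusted p = 0.0552). 4 members in all were lower without overlap, against 5.95% of all genes.

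Asns was 10.09, 9.78, 9.57, 9.52 and 9.92 in E17.5 controls and 9.23, 9.27, 9.17, 9.13 and 9.95 in knockouts. Array 28 lay among the controls and the other 4 knockout arrays below them all, giving -0.42 ± 0.17 (SE; limma adjusted p = 0.147). Without array 28 the estimate was -0.57 (adjusted p = 0.0266), and 4 members were called in place of 2. Array 25 held more members above the range of the controls (9) than below it (8), while arrays 24, 26, 27 and 28 held 16, 17, 22 and 19 below it. The share of all genes outside that range was not computed, so these counts have no background beside them. The median standard deviation over all genes was 0.20 in these knockouts and 0.10 in their controls. In the fit over all 20 arrays, whose spread is shared with the tighter groups, 6 members were called. The 18S ribosomal RNA probe set stood at 9.46 to 10.58 in the E17.5 knockouts, against 8.88 to 9.47 in their controls (difference 0.75, exact permutation test adjusted p = 0.0577), and its part in the members' differences was not tested.

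At birth the balance of calls was the opposite. 10 of 32 members were higher in knockouts and 1 was lower, against 39.6% of all genes called, 20.2% higher and 19.4% lower. So many genes differed at birth that the members' count is read against that background. The median difference was 0.12 over members and -0.01 over all genes. The share of members that were higher was 31.2%. By role, 6 of 19 synthetases, 2 of 7 synthesis enzymes and 2 of 6 Atf4 regulators and targets were higher, and Aldh18a1 was the member that was lower. In 7 members every knockout array was above every control array, against 13.2% of all genes.

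Aars was 9.31, 9.60, 9.32, 9.21 and 9.32 in newborn knockouts against 8.83, 8.88, 8.88, 8.89 and 8.80 in controls, a difference of 0.49 ± 0.07 (SE; limma adjusted p = 0.000612). The lowest knockout array was above the highest control array. At E17.5 its difference had been -0.28 ± 0.12 (limma adjusted p = 0.194). Among the other synthetases, Rars (0.35), Gars (0.33), Cars (0.28), Yars (0.24) and Kars (0.16) were higher. The Kars call was lost in 6 of 20 other settings and the Yars call in 2 of 20. Tars, for threonine, had 0.24 ± 0.10 and did not pass (limma adjusted p = 0.0680).

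Asns was 9.31, 9.43, 9.20, 9.15 and 9.22 in newborn knockouts against 8.48, 8.71, 9.0, 8.78 and 8.94 in controls. All knockout arrays were above all controls, with a difference of 0.48 ± 0.10 (SE; limma adjusted p = 0.00356). Mthfd2 was 8.89, 8.91, 8.76, 8.78 and 8.76 in knockouts. Its control array 6, at 8.85, lay inside that range and the other 4 below it, and the difference was 0.37 ± 0.10 (limma adjusted p = 0.0130). These comparisons share the newborn control arrays with the stage comparison in controls, where the same arrays were the lower group, so these results are not independent.

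Aldh18a1 was 9.60, 9.30, 9.49, 9.09 and 9.26 in newborn knockouts against 9.72, 9.65, 9.64, 9.56 and 9.65 in controls. The groups overlapped at the highest knockout array, and the difference was -0.30 ± 0.09 (SE; limma adjusted p = 0.0222), smaller than at E17.5, with an interaction of 0.56 ± 0.16 that did not pass (limma adjusted p = 0.126). Its 4 probe sets ranged from -0.30 to 0.05 at birth, and the one not ending in x_at was at 0.05. Serine synthesis was not called, with Phgdh at -0.29, Psat1 at -0.11 and Psph at 0.12.

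Among the regulators, Atf5 showed the largest difference at birth. Knockout arrays were at 9.86, 10.05, 9.82, 9.0 and 9.40 and controls at 9.0, 8.92, 9.06, 9.0 and 8.84. Knockout array 21 lay inside the control range and the other 4 above it, with a difference of 0.66 ± 0.17 (SE; limma adjusted p = 0.0100). Atf4 was 11.43, 11.44, 11.26, 11.29 and 11.20 in knockouts, all above the controls, and differed by 0.24 ± 0.06 (limma adjusted p = 0.00814). The other 2 tested Atf4 probe sets differed by 0.01 and -0.02 and did not pass, so the Atf4 call rests on 1 probe set.

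The newborn knockout lenses also differed in markers of other eye tissues. The mean of 18 measured retina markers, of 20 listed, ran from 6.14 to 6.94 in newborn knockouts and from 4.65 to 5.88 in newborn controls, and the mean of 9 pigment cell markers from 7.31 to 7.90 and from 6.31 to 6.81. Both were higher in knockouts, by 1.16 and 1.11 (exact permutation test, two-sided, p = 0.00794 each, the smallest possible, adjusted p = 0.0397), and 13 of 15 tested retina markers were called higher. The mean of 10 macrophage markers ran from 5.79 to 6.65 in knockouts and from 5.04 to 6.16 in controls (adjusted p = 0.113 by the same exact test), and 4 of 7 tested macrophage markers were called higher. The mean of 8 lens epithelium markers ran from 8.60 to 9.43 in knockouts and from 9.26 to 9.50 in controls (adjusted p = 0.106 by the exact test). That mean joins markers that went opposite ways, since 5 of the 8 were called lower and 3 higher. Pdgfra, a growth factor receptor, was at 6.59 ± 1.13 in knockouts and 9.33 ± 0.27 in controls (SD, n = 5), and Krt18, a keratin, at 6.75 ± 0.25 and 5.14 ± 0.31. The mean of 12 lens fibre markers was lower by 0.08 (exact permutation test, p = 0.00794, adjusted p = 0.0397), with 2 of the 12 called lower. Over all genes tested at birth, 20.2% were called higher and 19.4% lower. Higher calls covered 86.7% of the tested retina markers, 57.1% of macrophage markers and 37.5% of lens epithelium markers. Lower calls covered 62.5% of lens epithelium markers and 16.7% of lens fibre markers, the latter below the share over all genes.

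With the retina marker mean as a covariate, 0 of 32 members were called at birth in limma (5 at unadjusted p below 0.05), and 352 of all genes in place of 4700. The estimates stayed above 0 for these members, with Aars at 0.51 (adjusted p = 0.0696), Rars at 0.53 (0.0566), Asns at 0.61 (0.0875) and Atf5 at 0.79 (0.169). Other members called without the covariate were further from passing with it, with limma adjusted p = 0.174 for Gars, 0.262 for Cars and 0.42 for Mthfd2. The retina marker means of the newborn groups do not overlap, so this covariate and genotype cannot be fully told apart, and the part of retina RNA in the members' differences was not tested otherwise. The Gapdh 5′ minus 3′ probe set difference was also higher in knockouts, by 0.20 at E17.5 and 0.18 at birth (exact permutation test, p = 0.00794 each, adjusted p = 0.0397). Its part in the result was not tested.

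**Figure D3:**
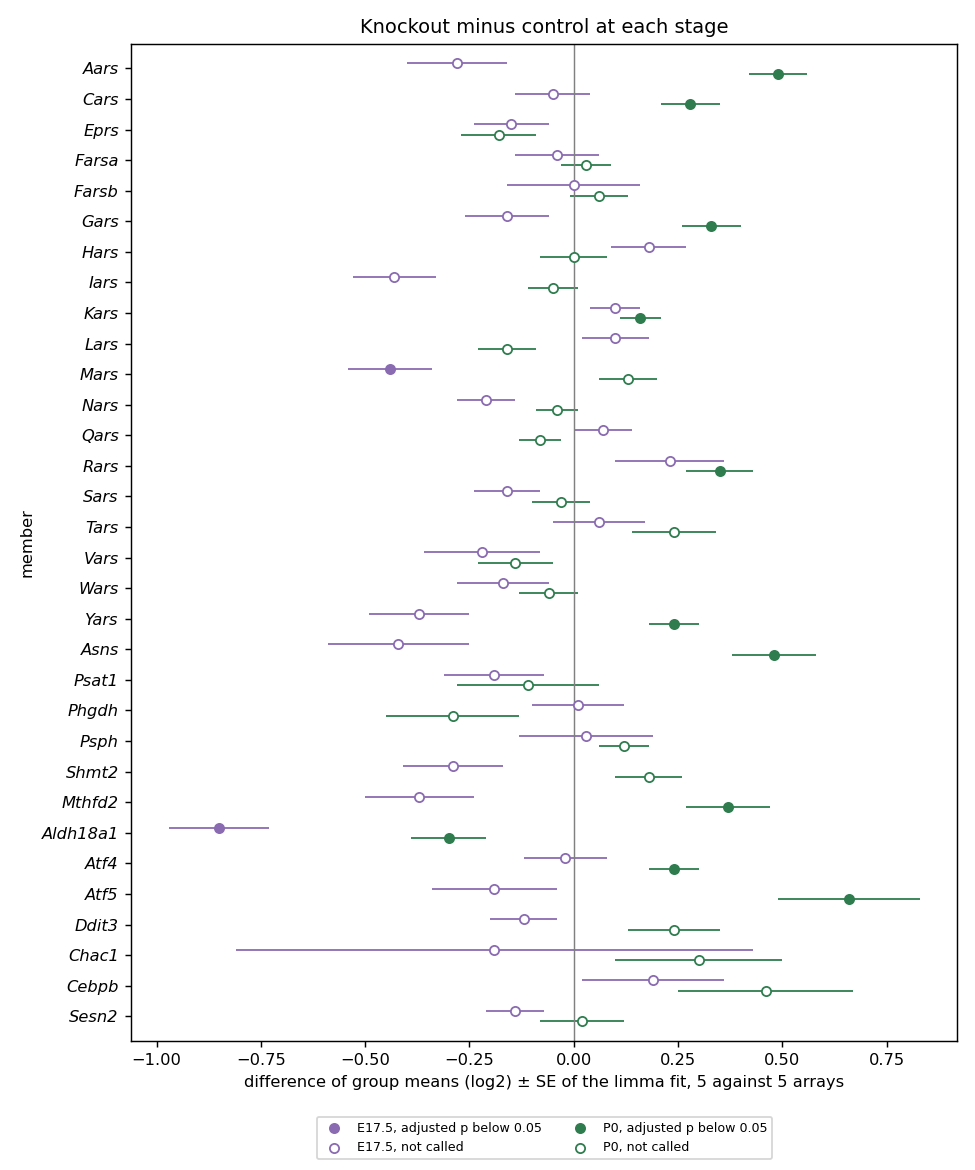
Knockout minus control (log2, horizontal axis, mean ± SE of the limma fit on 5 against 5 arrays) for 32 tested members at E17.5 (purple) and at P0 (green), with filled points for limma adjusted p below 0.05. At E17.5 the filled points are Aldh18a1 and Mars, both below 0, and at P0 there are 10 filled points above 0 and 1, Aldh18a1, below it.

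**Figure D4:**
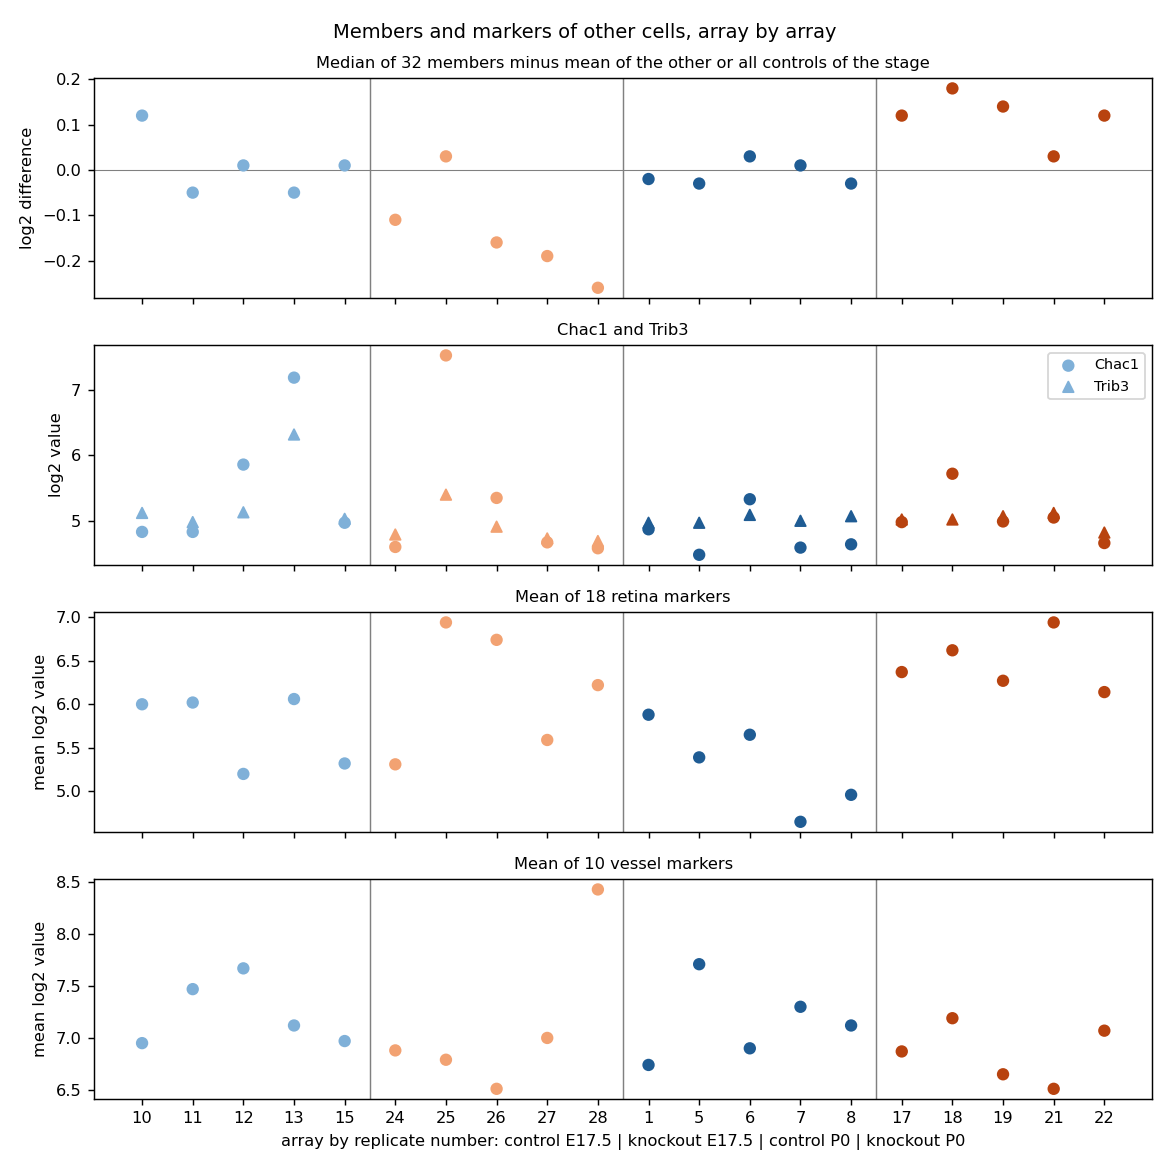
Median difference of 32 tested members from the mean of the controls of the same stage (log2), for each of the 20 arrays, above panels with the log2 values of Chac1 and Trib3 and with the mean log2 level of 18 retina and of 10 vessel markers on the same arrays. Knockout arrays lie between -0.26 and 0.03 at the earlier stage and between 0.03 and 0.18 in newborns, and the retina marker mean is above that of all newborn controls on every newborn knockout array. Control arrays, each set against the other controls of its stage, lie between -0.05 and 0.12 at E17.5 and between -0.03 and 0.03 in newborns.

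Of the newborn knockout arrays, 4 stood above their controls over the members and array 21 lay close to them. Their median deviation from the newborn controls over the members was 0.12, 0.18, 0.14, 0.03 and 0.12 on arrays 17, 18, 19, 21 and 22, with 16, 21, 14, 10 and 16 members above the control range and 7, 7, 8, 9 and 4 below it. Medians over all genes lay between -0.01 and 0.01 there, and the share of all genes outside the range was not computed. A control array could deviate as much. E17.5 control array 10 stood at 0.12 from the other controls of its stage, with 17 members above their range and 2 below it. The knockout arrays at E17.5 stood at -0.11, 0.03, -0.16, -0.19 and -0.26 on arrays 24 to 28, with medians over all genes between -0.07 and 0.02. Array 25 was the single one of these knockout arrays with a member median above 0.

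Array 25 also carried the highest Chac1 in the data set. Chac1 was 4.60, 7.53, 5.35, 4.67 and 4.58 in knockouts at E17.5 and 4.83, 4.83, 5.86, 7.19 and 4.97 in controls. In each genotype 1 array stood far above the rest, array 25 and array 13, and no comparison of Chac1 passed, with a knockout effect of -0.19 ± 0.62 at E17.5 and 0.30 ± 0.20 at birth. Trib3 was 5.12, 4.98, 5.13, 6.32 and 5.03 in the E17.5 controls and 4.79, 5.40, 4.91, 4.73 and 4.69 in the knockouts. The high arrays were again 13 and 25, so both genes were highest in the same mouse of each group.

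**Figure D5:**
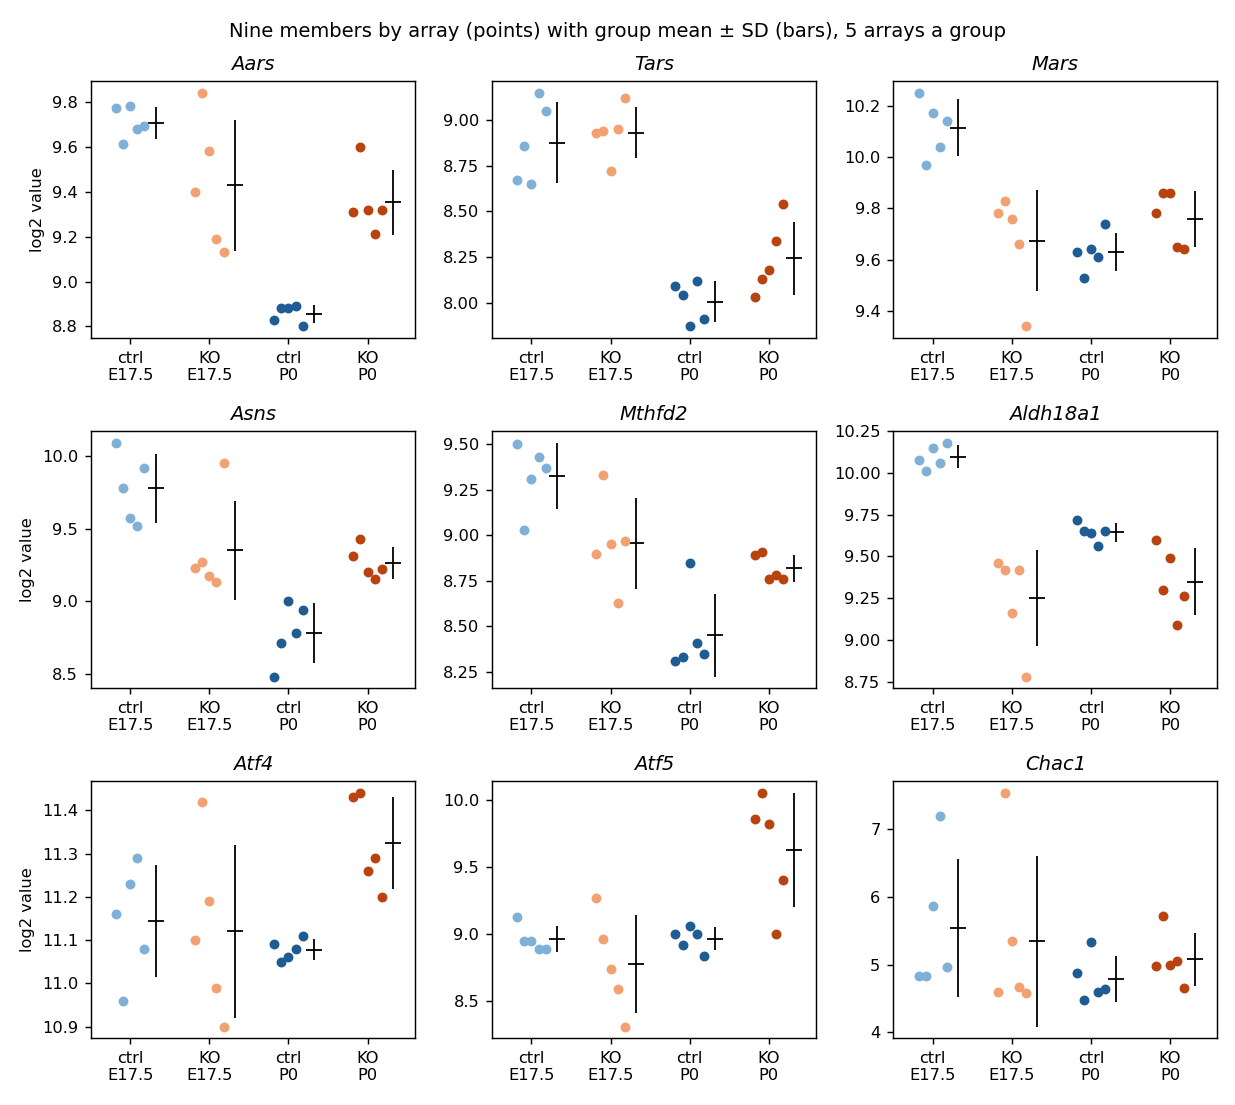
Log2 values of 9 members in the 4 groups, 1 point per array, with the group mean ± SD over 5 arrays as bars. Aars, Asns and Mthfd2 are lowest in newborn controls, Tars is low in both newborn groups, Aldh18a1 is highest in E17.5 controls, and Chac1 has 1 array far above the others in each E17.5 group.

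Several members have further probe sets, 65 tested in all over 32 members. Tested on their own, 42 of the 65 fell and 0 rose in controls (limma, adjusted over 20702 probe sets). In knockouts 1 was higher and 6 lower at E17.5, and 16 were higher and 4 lower at birth. Several of these are probe sets of the same gene. The share called over all 20702 probe sets was not computed, so these counts have no background beside them. The second Aars probe set changed by -0.81 in controls and differed by 0.73 at birth between genotypes, with an interaction of 0.77 ± 0.20 (limma adjusted p = 0.0852). The second Mthfd2 probe set gave -1.16 in controls, 0.61 at birth and an interaction of 0.91 ± 0.19 (0.0590). Probe sets disagreed for Nars, with 0.35 ± 0.06 (limma adjusted p = 0.00128) at birth in one and -0.04 in the other, and for Hars at E17.5, with 0.66 ± 0.14 (0.0208) and 0.18. Likewise Cars at E17.5 had -0.33 ± 0.08 (limma adjusted p = 0.0306) in a probe set beside the -0.05 shown, and Farsa at birth had -0.25 ± 0.07 (0.0110) in 1 probe set, with 0.03 and -0.06 in the others. At birth 1 of 4 Shmt2 probe sets passed, at 0.28 ± 0.08 (0.0175).

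Genes around the members were taken from 5 further lists of this pathway, with 62 tested genes in all. In controls 26 of the 62 fell between E17.5 and birth (41.9%, against 24.9% of all genes) and 3 rose (4.84%, against 12.5%). At birth 14 were higher in knockouts (22.6%, against 20.2%) and 12 lower (19.4%, against 19.4%), close to the shares over all genes. Of the 15 mitochondrial synthetases, 5 fell in controls (33.3%, against 24.9% of all genes), among them Vars2 (-0.37). At birth Fars2 (0.21) and Sars2 (0.16) were higher and Ears2 (-0.27) lower in knockouts. Those shares, 13.3% and 6.67%, were below the 20.2% and 19.4% of all genes. Of the 3 scaffolds of the multisynthetase complex, Eef1e1 (-0.58) and Aimp2 (-0.27) fell in controls, and Aimp1 (0.18) and Aimp2 (0.19) were higher in newborn knockouts.

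Upstream, among 14 genes for eIF2, its kinases, phosphatase subunits and exchange factor, 6 fell and 1 rose in controls. These were 42.9% and 7.14%, against 24.9% and 12.5% of all genes. The one that rose was Ppp1r15a, the inducible subunit that restores eIF2, by 0.89 ± 0.12 in controls (SE; limma adjusted p = 0.000352) and by 1.07 ± 0.15 in knockouts (0.00513). At birth 3 were lower in knockouts (21.4%, against 19.4% of all genes) and 0 higher (against 20.2%). Unadjusted limma p was below 0.05 in 4 that were lower and 3 that were higher, against 2880 and 2893 of 11859 genes. Eif2ak4, the sensor of uncharged tRNA, was lower, at -0.29 ± 0.06 (limma adjusted p = 0.00439).

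The 20 further Atf4 targets did not move one way. In controls 8 fell and 2 rose, with Bcat1, a branched-chain aminotransferase, at -1.42 ± 0.12 (SE; limma adjusted p = 5.61e-05), Ddit4 at -0.97 and Eif4ebp1 at -0.92. At birth 4 were higher and 6 lower in knockouts. Slc7a5, the light chain of a large neutral amino acid transporter, was lower by 0.75 ± 0.11 (limma adjusted p = 0.00076), its heavy chain Slc3a2 by 0.33 and the transporter Slc38a2 by 0.67. Cth, an enzyme of cysteine synthesis, was higher by 1.0 and the glycine transporter Slc6a9 by 0.97. At E17.5, Slc1a4, a neutral amino acid transporter, was lower by 0.50 ± 0.12 (0.0468).

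Of 10 further serine, one-carbon and proline enzymes, 6 were higher and 2 lower in newborn knockouts. Shmt1, the cytosolic counterpart of Shmt2, was higher by 1.01 ± 0.12 (SE; limma adjusted p = 0.000237), Mthfd1 by 0.47 and Glul, glutamine synthetase, by 1.47. The mitochondrial Mthfd2l and Mthfd1l were lower by 0.47 and 0.38. In controls 5 of the 10 fell between E17.5 and birth, among them Mthfd1 (-0.59), Got1 (-0.49) and Pycr3 (-0.46), a proline synthesis enzyme. Glul is also abundant in retinal Müller glia, and the retina marker means were higher in the same newborn knockouts. Their part in this result was not tested.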

How the data were processed

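Total RNA from the lenses of 20 mice was labelled and hybridised to Affymetrix arrays, per the labels' protocols. The authors deposited 1 log2 value per probe set and array; no source used here gives the normalization behind it. Values ran from 1.72 to 15.0 and array medians from 5.05 to 5.25, so no further scaling was applied. Of 45101 probe sets, 64 controls, 932 with several genes and 9160 with none were left out, and symbols were updated by Entrez identifier (34741 of 34945 probe sets with 1 gene).

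The probe set with the highest mean over 20 arrays stood for a gene. Genes above the array median in at least 5 arrays (11859) were tested with limma 3.58.1 in R 4.3.3. Each comparison used its 2 groups (8 residual degrees of freedom), and the interaction all 20 arrays (16). Marker means were compared with exact permutation tests over 252 splits. Scripts were tested on simulated data. The number of arrays limits the precision. Named genes outside the member list are up to 3 per list, direction and comparison, by adjusted p. The members and lists were chosen with earlier results of these data known. Alternatives covered scaling, filter, probe set choice, spread, a retina covariate and leaving out arrays; testing each member probe set on its own was added after the data were seen. The sequence of 1 promoter window with a match is not reported here.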

Additional observations from a re-analysis of the deposited data

Results flagged for a closer look

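In 13 of 132 groups of 5 arrays (33 members, 4 groups each), 1 array lay far from the other 4, where chance gives about 1 in 20. 5 of the 13 were in knockouts at E17.5. Array 28 there was high in Farsb (10.41, next 9.65), Rars (10.50, next 9.94) and Asns (9.95, next 9.27), and array 25 was high in Chac1 (7.53, next 5.35) and Sesn2 (7.49, next 7.28). In E17.5 controls, array 13 was high in Trib3 (6.32, next 5.13) and array 10 in Atf5 (9.13, next 8.95). In newborn controls, array 6 was high in Iars (10.45, next 10.33), Nars (10.26, next 10.12) and Mthfd2 (8.85, next 8.41), and array 8 was low in Sars (10.40, next 10.53). In newborn knockouts, array 18 was high in Aars (9.60, next 9.32) and array 22 in Psat1 (10.60, next 9.99).

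The knockout effect on Aars differed between the stages, by 0.77 ± 0.15 on the log2 scale (limma adjusted p = 0.0355), with newborn knockouts above their controls and E17.5 knockouts below theirs on 4 of 5 arrays. This call was lost in 19 of 29 other settings, array weights among them.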

How the results depend on the processing

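In control lenses, 17 to 22 members were called from E17.5 to P0 under every setting run. For knockout against control at E17.5 (2 members), median centring, no filter, leaving out x_at and s_at probe sets, and the retina covariate each gave 1, array weights 4 and the fit on all 20 arrays 6, and leaving out arrays gave 1 to 4. At birth (11 members) the retina covariate gave 0 and leaving out arrays 10 to 15. In knockouts from E17.5 to P0 (6 members) the fit on all 20 arrays gave 13 and leaving out arrays 1 to 8. The interaction (1 member) gave 3 after quantile normalization, 2 with the stricter filter, and 0 with median centring, the mean of probe sets, no x_at or s_at probe sets, array weights and the retina covariate (12 to 15 at unadjusted p below 0.05), and 0 to 6 when arrays were left out. The cause of these changes was not tested. Signs turned at birth for Farsa (-0.15) and Nars (0.15) and in the control stage comparison for Farsa (0.10) with the mean of probe sets, and for Aldh18a1 at birth (0.0518) without x_at and s_at probe sets.

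Over all genes, the E17.5 count of 343 was 1541 in the fit on all 20 arrays, 713 with array weights, 580 after quantile normalization, 197 after median centring, 114 with the retina covariate and 49 to 1129 when arrays were left out. In knockouts the count of 1728 was 3940 in the fit on all 20 arrays, 2644 without the filter, 884 with the stricter filter and 440 to 2716 when arrays were left out, and in controls the count of 4431 was 2046 in the fit on all 20 arrays. The interaction count of 21 was 0 with array weights, 1 with the retina covariate and 0 to 321 when arrays were left out. No paired analysis was possible because the groups share no replicate numbers.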
